A study of Homo sapiens with 12 samples.

Results

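The 10 genes described here encode inhibitors of extracellular signal-regulated kinase (ERK) signalling, many of which are induced by ERK itself. The dual-specificity phosphatase genes are DUSP1, DUSP4, DUSP5, DUSP6 and DUSP14, the Sprouty genes are SPRY1, SPRY2 and SPRY4, and the Sprouty-related genes are SPRED1 and SPRED2. They were chosen by gene name, with earlier results of these data known, and all 10 were found among the 25914 genes that both RNA-seq tables list. The libraries came from RPE-1 cells, the hTERT-immortalized line of human retinal pigment epithelium, and from HCT116 cells, a colon cancer line, both with wild-type genotype according to the labels. Each line received 10 µM Nutlin-3a, which frees p53 from MDM2, or the solvent DMSO for 24 h, with 3 libraries per line and treatment and 12 in all. What was available as a level was the base mean, a normalized read count that the authors averaged over libraries. It was identical in both tables for all 25914 genes, so it separates neither the cell lines nor the treatments. The authors' comparisons of Nutlin-3a with DMSO were not used here. Therefore no response to Nutlin-3a, no spread between libraries and no test are given, and the libraries that enter the mean, as well as their depth, are not given in the sources used here. The identity of each cell line could not be checked against its markers.

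ERK is the last kinase of the RAS–RAF–MEK–ERK cascade, which carries growth factor signals to the nucleus. Active ERK induces genes whose products shut the cascade down again. Dual-specificity phosphatases remove the activating phosphates from ERK and related kinases, whereas Sprouty and SPRED proteins act further upstream, between the receptor and RAF.

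Among the phosphatases, DUSP4 (ENSG00000120875), a nuclear phosphatase, had a base mean of 5625 in the authors' tables. DUSP5 (ENSG00000138166), a nuclear phosphatase with a preference for ERK, had a base mean of 4992. DUSP6 (ENSG00000139318), the cytoplasmic phosphatase of ERK, had a base mean of 1906. DUSP1 (ENSG00000120129), a nuclear phosphatase that also acts on the stress kinases p38 and JNK, had a base mean of 1498. DUSP14 (ENSG00000276023), a small atypical phosphatase that lacks the kinase-binding domain of the others, had a base mean of 1074. Base means are not corrected for transcript length and are given here as each gene's own level.

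Of the Sprouty genes, SPRY4 (ENSG00000187678) had a base mean of 1408 and SPRY2 (ENSG00000136158) one of 783.2. SPRY1 (ENSG00000164056) had 131.2. The Sprouty proteins are adaptors that are phosphorylated after receptor activation. The SPRED proteins carry a Sprouty domain as well and bring the RAS inhibitor neurofibromin, encoded by NF1, to the membrane. SPRED2 (ENSG00000198369) had a base mean of 2631 and SPRED1 (ENSG00000166068) one of 1595.

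A longer transcript gives more reads, so levels were compared between genes per kb of exon, with all annotated exons of a gene joined, or per kb of the canonical transcript where that is said. On this scale DUSP5 was highest with 1969 per kb. DUSP4 followed with 773.5. DUSP1, a short gene, had 744.0 and stood at the third place of the members, after the sixth place by base mean. DUSP6 had 494.0, SPRED2 478.0 and DUSP14 440.2 per kb. The remaining members were SPRY2 with 243.8, SPRY4 with 214.7 and SPRED1 with 205.8 per kb. SPRY1 came last with 33.1 per kb, 59.5-fold under DUSP5. All 5 phosphatase genes lay above the 3 Sprouty genes and SPRED1, with SPRED2 among the phosphatases. Between neighbours such as DUSP4 and DUSP1, or SPRY4 and SPRED1, the distances were small, and without values per library their order could not be tested. The place of 8 of the 10 members differed between the base mean and the base mean per kb.

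**Figure D1:**
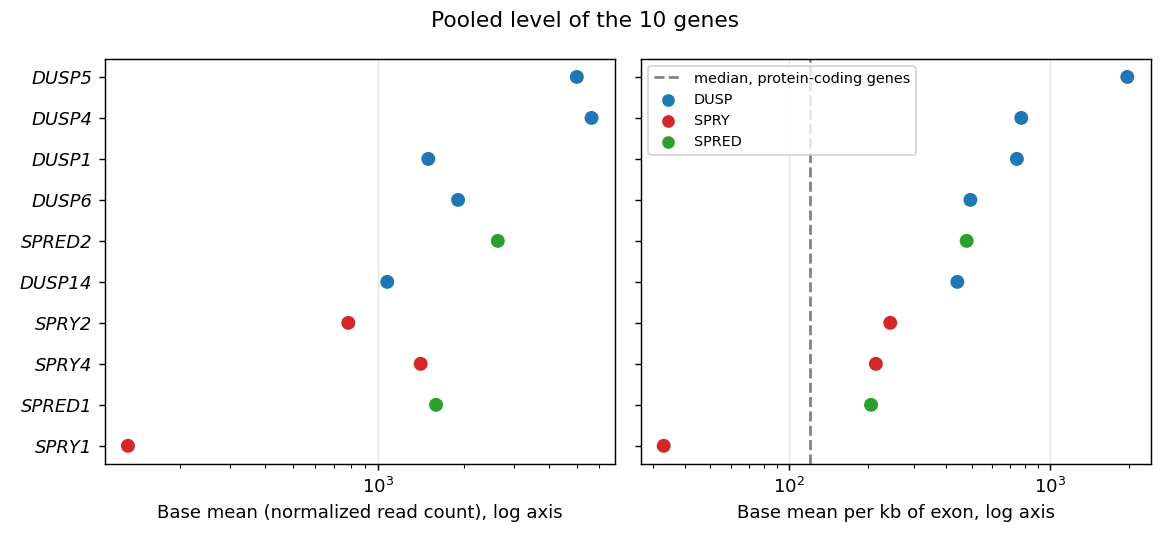
Base mean of the 10 genes as a normalized read count (left) and per kb of exon (right), both on log axes, with genes ordered by the right panel. Each point is 1 value averaged over libraries, so no error bar can be drawn; the dashed line is the median of protein-coding genes at 120.3 per kb, and SPRY1 at 33.1 is the only point to its left.

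Against the protein-coding genes with an annotated exon length, whose median was 120.3 per kb, 9 of the 10 members lay higher, and SPRY1 did not. DUSP5 stood at the percentile 97.1 of these protein-coding genes. DUSP4 stood at 90.4 and DUSP1 at 89.9, whereas SPRY1 stood at 28.0. The median percentile was 89.9 for the phosphatase genes and 64.6 for the Sprouty genes. These ranks rest on the pooled mean and hold for neither line nor treatment alone.

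The members were then set beside 17 genes of the core cascade, of which 13 lay above the median of protein-coding genes per kb of exon. The median of these 17 genes was 302.5 per kb of exon, and that of the members was 459.1. This order was the reverse per kb of the canonical transcript, with 767.4 for the cascade genes and 553.9 for the members. Per kb of exon, SHC1, GRB2 and NRAS were the highest, with 2216, 1346 and 1168. Per kb of the canonical transcript they stood at places 2, 3 and 7 of the 17. SHC1 and GRB2 encode adaptors that link receptors to RAS activation, and NRAS encodes one of the RAS proteins. The lowest per kb of exon were NF1 with 93.4, SOS1 with 84.0 and BRAF with 51.3. SOS1 encodes a RAS activator and BRAF a RAF kinase. Per kb of the canonical transcript NF1, SOS1 and BRAF stood at places 11, 15 and 17, so these places depend on the length used. Of the 10 members, 6 lay above the median of the cascade genes per kb of exon, but 2 did so per kb of the canonical transcript.

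Relatives that were not chosen were mostly lower. Members and relatives were listed with earlier results of these data known, so the gap between them is a description and was not tested. Across 10 further DUSP, SPRY and SPRED genes the median was 154.3 per kb, and 6 lay above the median of protein-coding genes, against 9 of the 10 members. DUSP3 was highest with 704.3 per kb, followed by DUSP16 with 356.3 and DUSP7 with 192.0. The lowest were DUSP22 with 107.3, DUSP9 with 81.2 and SPRY3 with 7.22 per kb. DUSP9 encodes a cytoplasmic ERK phosphatase of the same subgroup as DUSP6. SPRY1 and SPRY3 were the lowest Sprouty genes, and SPRED3 with 118.1 per kb was the lowest SPRED gene. These values are per kb of exon. Per kb of the canonical transcript the median of the relatives was 185.1, under the 191.0 of protein-coding genes. That of the members was 553.9. DUSP22 stood at place 4 of the relatives by that length.

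**Figure D2:**
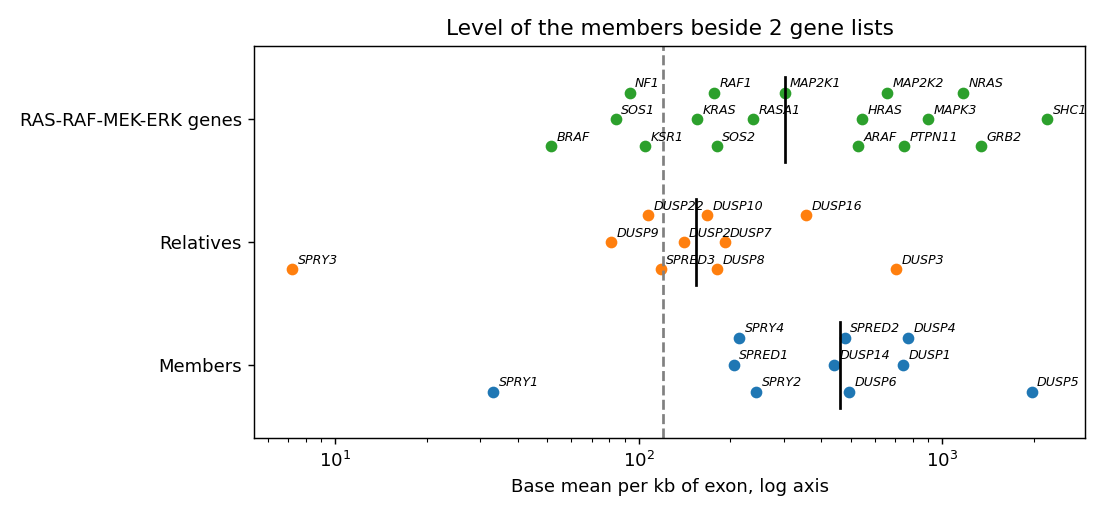
Base mean per kb of exon on a log axis for the 10 members, 10 relatives and 17 genes of the RAS–RAF–MEK–ERK cascade and its regulators. Each gene is 1 point. Black bars are list medians at 459.1, 154.3 and 302.5, and the dashed line is the median of protein-coding genes at 120.3; points are offset vertically for legibility only.

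The genes differed in size. DUSP1 lies on chromosome 5 of GRCh38 from 172768096 to 172771195 on the minus strand and spans 3.10 kb with 4 exons in its canonical transcript. SPRED2 lies on chromosome 2 from 65310851 to 65432637 on the minus strand and spans 121.8 kb with 6 exons. SPRED1 lies on chromosome 15 from 38252836 to 38357249 on the plus strand and spans 104.4 kb with 7 exons. The other members span at most 23.6 kb and have 2 to 4 exons. SPRY4 lies on chromosome 5 from 142310427 to 142326455, SPRY1 on chromosome 4 from 123396795 to 123403760, and SPRY2 on chromosome 13 from 80335976 to 80341126. DUSP4 lies on chromosome 8 from 29333064 to 29350684, DUSP5 on chromosome 10 from 110497907 to 110511533, DUSP6 on chromosome 12 from 89347235 to 89352501, and DUSP14 on chromosome 17 from 37489891 to 37513501. DUSP1 and SPRY4 are the only pair on the same chromosome. All annotations are those of GENCODE 44.

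The canonical transcripts differed more in their 3′ untranslated regions than in their coding parts. DUSP1, DUSP4, DUSP5 and DUSP6 encode 367 to 394 residues, and DUSP14 encodes 198. The Sprouty genes encode 299 to 319 residues, SPRED1 444 and SPRED2 418. The 3′ untranslated region of the canonical transcript ran from 629 bases in DUSP14 and 666 in DUSP1 to 3962 in DUSP4 and 5585 in SPRED1. In SPRY4 it was 3779 bases long, against 782 in SPRY2 and 1204 in SPRY1. The genes with the longest transcripts, SPRED1, DUSP4 and SPRY4, were therefore those whose read counts were divided most when taken per kb.

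**Figure D3:**
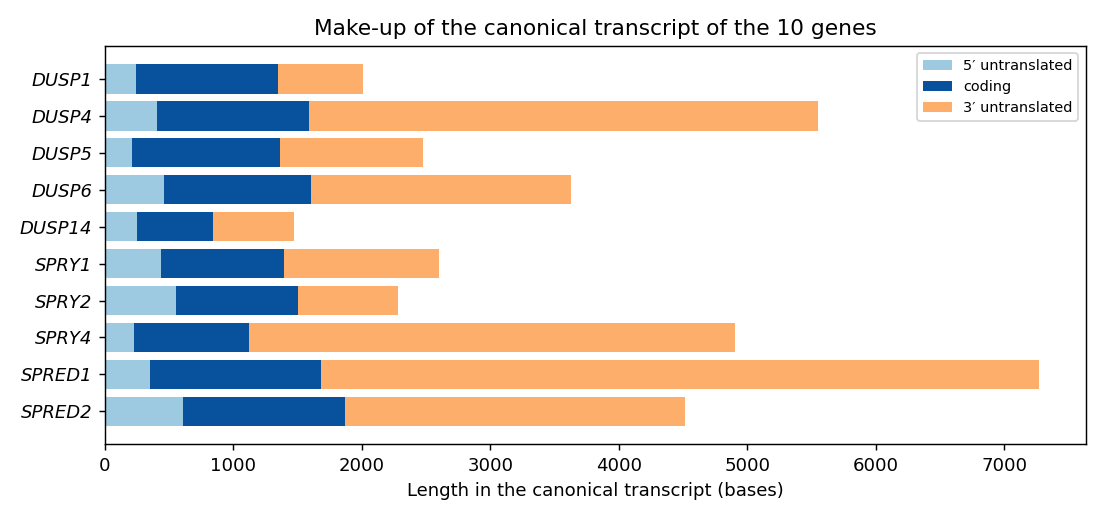
Length in bases of the 5′ untranslated, coding and 3′ untranslated parts of the canonical GENCODE 44 transcript of each of the 10 genes, stacked from 0. The coding part stays between 594 and 1332 bases, whereas the 3′ untranslated part reaches 5585 bases in SPRED1.

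Promoter sequences of RefSeq (GRCh38.p14), from 250 bases before to 50 after a start, were searched for 8 members with 12 promoters among them. No promoter was used for DUSP4 and DUSP5. The words searched on both strands were the ETS core CCGGAA, the core TGACG of the cyclic AMP response element (CRE), the AP-1 site TGANTCA, the CArG box bound by serum response factor and the p53 decamer with CATG in its centre. The CRE core was present for DUSP1, SPRED2, SPRY2 and SPRY4, in 33.3% of the member promoters against 24.6% of all 35116 promoters. DUSP1 held 4 matches, 2 of which overlap as the 2 strands of one palindrome, and no other member held more than 1. The ETS core was present in SPRY1 and SPRY2, in 16.7% of the member promoters against 17.2% of all. The AP-1 site was found only in the second of the 2 SPRED2 promoters, in 8.33% against 7.71%. No member promoter held a CArG box or a p53 decamer in this window, words that occur in 1.29% and 1.57% of all promoters. With 12 promoters, these shares are descriptions of the letters and not evidence of binding.

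The windows below show where the words stand upstream of the start, each as 30 bases on the strand of the gene with the match in capitals. The first 2 windows are of DUSP1, the member with the most matches, at chr5:172771351-172771380 and chr5:172771304-172771333, minus strand. They start their matches 172 and 125 bases before the transcription start. The third is of SPRY4 at chr5:142324299-142324328 and the fourth of SPRY2 at chr13:80341300-80341329, both on the minus strand, with matches 68 and 190 bases before the start. The last 2 hold the ETS core, in SPRY1 at chr4:123398307-123398336 on the plus strand and in SPRY2 at chr13:80341251-80341280 on the minus strand. The SPRY4 and SPRY1 windows lie inside the annotated span of their gene, upstream of an internal start. For SPRY1 it is the second of 2 promoters.
DUSP1 CRE core at 172: gctccgaggctgaTGACGtctccccctctg
DUSP1 CRE core at 125: ctggcagggcgggTGACGtcaccgccccgt
SPRY4 CRE core: ctcttcggagccgTGACGgactgaattccc
SPRY2 CRE core: cctcggatccacaTGACGccatttactgct
SPRY1 ETS core: tgccctccgcagCCGGAAgggggccgcggg
SPRY2 ETS core: tccctgcctcctCCGGAAaggcgagggcgc
The DUSP1 word at 125 bases continues into the full palindrome, which is why the same place was counted on both strands. The fourth DUSP1 match, on the opposite strand 111 bases before the start, is the nearest to it and is not printed. SPRY1 and SPRY2 share the ETS core with 1 promoter each. Whether the word relates to their base means per kb, 33.1 and 243.8, was not tested.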

How the data were processed

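RNA-seq was done on RPE-1 and HCT116 cells treated with Nutlin-3a or DMSO, with 3 libraries per group. According to the processing notes in the labels, the authors used Trimmomatic 0.39, cutadapt 3.3, SAMtools 1.12, featureCounts 2.0.1 and DESeq2 1.32.0 on hg38, and the paper's methods name segemehl and Ensembl annotation. The labels describe ribosomal RNA depletion and the paper poly(A) selection.

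The deposited signal is the base mean, which the authors obtained by averaging size factor-normalized counts over libraries. It is not divided by gene length. The other 5 numeric columns hold the authors' own comparison (log2 fold change, standard error, statistic, p-value and adjusted p-value) and were not used. As no values per library are given in the tables, no planned test could be run, and the total count per library is unknown.

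Members were matched by gene name. Base means were divided by the joined exon length of GENCODE 44, which is on the same build and held 25836 of the 25914 genes. A percentile is the percent of genes with a lower value, with equal values counted in part. Percentiles per kb cover only genes with a GENCODE length. Named genes were all members and the 3 highest and 3 lowest of each list, with SPRED3 chosen after its value was seen. One planned gene of the cascade is not reported here. The members and lists were chosen with earlier results of these data known. The percentile, the joined exon length and the search for the CRE core were tested on made-up input with known answers. Alternatives were other gene sets, length definitions, windows and strands. Planned protein comparisons were not made. Python 3.11.15 with numpy 2.4.6, pandas 2.3.3 and matplotlib 3.10.9 was used.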

Additional observations from a re-analysis of the deposited data

How the results depend on the processing

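Of the 10 members, 8 stood above the percentile 75 of all listed genes by base mean, which is not corrected for length. All 17 cascade genes and 3 of the 10 relatives did so as well. The count of members was 4 among protein-coding genes only, a comparison that leaves out the mostly lower noncoding genes and pseudogenes. It was 7 at base means of at least 10, 7 per kb of exon and 6 per kb of the canonical transcript, a length chosen after seeing the data. The number of members above the median of the cascade genes was 6 per kb of exon and 2 per kb of the canonical transcript. The medians of the members and of the cascade genes were 459.1 and 302.5 per kb of exon, an order that reversed to 553.9 and 767.4 per kb of the canonical transcript. The order of the 10 members changed for 2 genes between these lengths. The AP-1 site of SPRED2 was lost, with 0 genes left, when the search kept to the bases before the start. No paired analysis was possible because both tables give pooled base means and nothing per library, and for the same reason the planned tests, normalizations and left-out libraries were not run. The planned protein alignments were not run either. Depth per library is unknown and limits every level given here.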
